A study of Rattus norvegicus and Mus musculus with 74 samples.

Results

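Orphan CpG islands are stretches of CpG-rich DNA that lie away from the annotated start of any gene. They were taken here as the regions of the 2 deposited tables that held at least 1 CpG island and no promoter, by the tables' own annotation. This gave 2025 of 72824 rat regions (2.78%) and 1018 of 60110 mouse regions (1.69%). For comparison, 8844 rat and 9409 mouse regions held both an island and a promoter (promoter islands below), and 54655 rat and 42779 mouse regions held neither. A region is in a table only because an interval of signal was called there in at least 1 library of its species, so islands without any of the measured marks are not among them.

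The values came from ChIP-seq of H3K4me3, H3K9Ac, H3K27me3 and H3K9me3 in brain cortex. In Sprague-Dawley rats the groups were animals with prenatal VPA (valproate) injection given TAK-418, animals with prenatal VPA injection given vehicle, and healthy animals given vehicle. In C57BL/6J mice they were animals with prenatal poly I:C injection (double-stranded RNA that mimics a virus) given TAK-418, animals with prenatal poly I:C injection given vehicle, and healthy animals given vehicle. They are called TAK-418, vehicle and control animals below. Each group had 3 libraries per mark. TAK-418 inhibits LSD1 (gene Kdm1a), an enzyme that removes methyl groups from lysine 4 of histone H3, and the design asks what the prenatal exposure and the inhibitor do to these marks. Age, dose and sex were not given in the sources used here. No label states whether replicate libraries stem from different animals, and p-values therefore cover only the spread among these libraries, which may be technical. In whole cortex, fewer cells with a mark and less of the mark per cell cannot be told apart.

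CpG islands usually escape DNA methylation. Proteins with a CXXC domain, such as KDM2B and CFP1, bind their unmethylated CpGs and bring in the enzymes that write H3K4me3 or the Polycomb complexes that lead to H3K27me3. Orphan islands are known to include unannotated or tissue-specific promoters, the control regions of imprinted genes and islands inside genes that become methylated during development. H3K9Ac accompanies H3K4me3 at active promoters, and H3K9me3 is a mark of heterochromatin that is found on methylated DNA.

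Most orphan islands lay far from any listed gene start. The tables listed no gene for 1140 of the rat regions (56.3%) and 416 of the mouse regions (40.9%). The others were inside a gene (571 in rat, 441 in mouse), downstream of one only (246 and 134) or upstream of one only (68 and 27). Where a gene was listed, its start was a median of 36590 bp away in rat and 46412 bp in mouse, and never closer than 4300 bp in rat or 2869 bp in mouse. A single island was counted in 1842 rat and 939 mouse regions. The median region was 9399 bp long in rat and 11199 bp in mouse, which is wider than an island, so a mark called in a region need not lie on the island itself. In rat, Camta1, a calmodulin-binding transcription activator of neurons, had 5 orphan island regions, the most of any gene. Kdm2b and Tenm3 had 4 each. In mouse no gene had more than 3, a number reached by Anks1b, Cacna1a, Ephb2, Nfia and Palld.

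The tissue label was checked against marker genes fixed from textbook knowledge. All 6 genes of cortical excitatory neurons, all 4 of astrocytes and all 4 of oligodendrocytes had intervals of both H3K4me3 and H3K9Ac in either species, and neither of the 2 choroid plexus genes did in rat (none was listed in mouse). The check was not clean. In rat, Syt1 of the 3 pan-neuronal genes was without both marks, and 3 of 5 inhibitory neuron genes had them. In mouse, Csf1r of the 4 microglia genes was without H3K9Ac, and 4 of 5 inhibitory neuron genes had both marks. Of 3 cerebellar genes, 1 in rat and 2 in mouse had both marks. Of 3 striatal genes, 2 were listed in either species, and 2 had H3K4me3 and 1 H3K9Ac. H3K27me3 was also called at all 6 excitatory neuron genes and all 4 astrocyte genes in either species. Of the 4 oligodendrocyte genes, 2 in rat and 1 in mouse had it. Of 4 genes of other tissues, 2 in rat and 1 in mouse had H3K4me3 and 1 in either species had H3K9Ac. Several libraries stood apart. In mouse H3K9me3, TAK-418 library 2 and vehicle libraries 1 and 2 had intervals in 8, 8 and 4 orphan islands, while vehicle library 3 had them in 570 (56.0%). Over island regions, TAK-418 library 2 correlated with the control H3K9me3 profile at 0.387, and vehicle libraries 1, 2 and 3 at 0.446, 0.397 and 0.415. TAK-418 libraries 1 and 3 stood at 0.898 and 0.883. Whether the labels or the immunoprecipitation were at fault was not tested. No mouse H3K9me3 result involving the vehicle group is read further than its values. Mouse H3K4me3 control library 1 was high, mouse H3K27me3 vehicle library 3 was low, rat H3K9Ac vehicle library 3 was low within its group and rat H3K9me3 control library 1 was low. Mouse H3K9me3 control library 1 was high as well, with intervals in 32258 regions of any kind, against 8395 and 4460 in control libraries 2 and 3. Counts of changed regions that rest on them are given without them as well, in places only as a range with 1 library left out. Shares and levels in controls are mostly given with all 3 controls.

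In control cortex most orphan islands carried the 2 active marks, though fewer than promoter islands did. H3K4me3 was called in at least 2 of the 3 control libraries at 69.3% of orphan islands in rat, against 94.7% of promoter islands and 3.69% of regions with neither feature. In mouse the shares were 60.3% of orphan islands, 94.0% of promoter islands and 2.81% of regions with neither. H3K9Ac was called at 70.1% of orphan islands and 92.7% of promoter islands in rat, and at 57.1% and 88.7% in mouse. The gap was far wider than the spread between libraries. H3K4me3 was found at 68.7%, 70.4% and 69.2% of orphan islands in the 3 rat controls, against 94.2%, 95.3% and 94.5% of promoter islands. In the 3 mouse controls it was found at 60.0%, 60.3% and 60.6% of orphan islands, against 93.8%, 93.9% and 94.0%. All 3 controls of each species showed this direction, which is the most that a paired exact permutation test over 3 libraries can show (its two-sided p cannot go below 0.25).

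The repressive marks were at least as common on orphan islands as on promoter islands. H3K27me3, the Polycomb mark, was called at 43.0% of orphan islands and 38.5% of promoter islands in rat, and at 28.0% and 27.5% in mouse. Its libraries spread more widely than this difference. It was found at 43.8%, 55.6% and 31.6% of orphan islands in the 3 rat controls, against 38.8%, 48.1% and 31.3% of promoter islands. In the 3 mouse controls it was found at 22.1%, 29.6% and 30.9% of orphan islands, against 23.2%, 28.4% and 29.3%, so that the order was not the same in every library. H3K9me3 was called at 15.9% of orphan islands and 10.4% of promoter islands in rat, and at 8.84% and 4.79% in mouse. Regions with neither feature had H3K9me3 more often than orphan islands, at 18.1% in rat and 16.65% in mouse. The mouse gap was wide mainly in control library 1. In the 3 mouse controls the mark was found at 64.9%, 15.3% and 7.72% of these regions, against 19.4%, 8.25% and 6.29% of orphan islands. By the rule of 3 of 3 controls the mouse shares were 5.90% and 5.50%. H3K27me3 was less common on regions with neither feature, at 12.4% in rat and 7.71% in mouse. Those regions were also shorter, with medians of 4399 and 5199 bp against 9399 and 11199 bp for orphan islands. Orphan islands of up to 5000 bp had H3K27me3 at 19.8% in rat and 0.498% in mouse, so this contrast is not free of length. Against promoter islands, the orphan share of H3K9me3 was the higher in each of the 6 controls. In the rat controls it was 6.57%, 19.6% and 18.0% of orphan islands, against 3.51%, 13.2% and 12.2% of promoter islands. The rat share of 15.9% was 6.17% without control library 2 and 6.07% without control library 3, and the mouse share of 8.84% was 5.60% without control library 1. In these cases both remaining controls had to show the mark. In rat they included the low control library 1, which had it at only 6.57% of orphan islands.

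**Figure D1:**
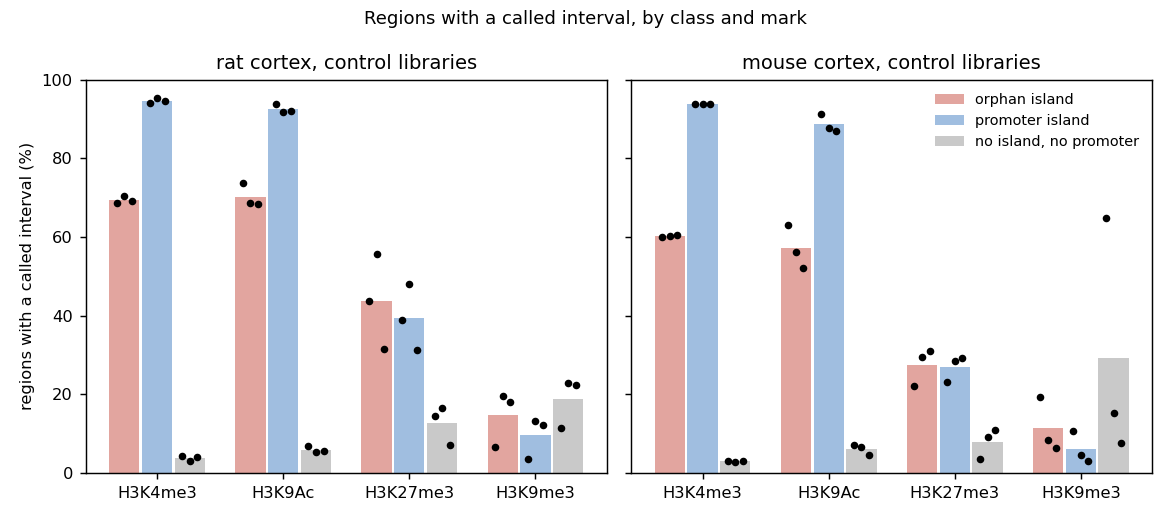
Percent of regions with a called interval of each mark in control cortex, rat and mouse, for orphan islands, promoter islands and regions with neither feature. Bars are the mean of 3 control libraries and points are the libraries. The active marks were called at 57.1% to 70.1% of orphan islands and at 88.7% to 94.7% of promoter islands, by the rule of at least 2 of 3 controls, and the repressive marks at 8.84% to 43.0% and 4.79% to 38.5%.

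Where an active mark was called, its median level on orphan islands was somewhat below that on promoter islands. The level is the mean signal of a region, on the scale the authors deposited. Over regions with the mark, the median H3K4me3 signal was 13.4 ± 2.95 on orphan islands and 16.0 ± 3.06 on promoter islands in rat (mean ± SD of 3 controls), and 8.12 ± 2.73 and 11.5 ± 4.39 in mouse. The H3K9Ac medians were 6.02 ± 0.690 and 6.96 ± 0.679 in rat, and 5.93 ± 1.28 and 7.25 ± 1.74 in mouse. Within each library the orphan median was the lower of the pair, in all 3 controls for both marks and both species. In the 3 rat controls it was 10.5, 16.4 and 13.3 for H3K4me3, against 12.8, 18.9 and 16.1 on promoter islands. The two-sided p of a paired exact permutation test over 3 libraries cannot go below 0.25 here either. The H3K27me3 medians were 4.79 ± 1.93 on orphan islands and 5.13 ± 2.10 on promoter islands in rat, and 5.05 ± 1.04 and 5.05 ± 1.03 in mouse. The H3K9me3 medians were 2.57 ± 0.452 and 2.14 ± 0.304 in rat, and 3.60 ± 1.70 and 2.87 ± 1.02 in mouse.

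Taken by combination, the state of active promoters was the most common one on orphan islands, and states without H3K4me3 took a larger share than on promoter islands. H3K4me3 with H3K9Ac and neither repressive mark was found at 756 rat orphan islands (37.3%) and 400 mouse ones (39.3%), against 57.6% of promoter islands in rat and 66.4% in mouse. The same 2 marks with H3K27me3 were found at 447 rat orphan islands (22.1%) and 85 mouse ones (8.35%), against 26.5% of promoter islands in rat and 18.6% in mouse. H3K27me3 without any of the other marks was found at 168 rat orphan islands (8.30%) and 109 mouse ones (10.7%), against 2.42% and 2.82% of promoter islands and 9.50% and 6.54% of regions with neither feature. H3K9me3 alone was found at 91 rat orphan islands (4.49%) and 34 mouse ones (3.34%), against 0.441% and 0.393% of promoter islands and 16.1% and 15.9% of regions with neither. None of the marks reached 2 of 3 controls at 192 rat orphan islands (9.48%) and 164 mouse ones (16.1%), against 0.611% and 1.74% of promoter islands and 66.2% and 70.6% of regions with neither. H3K9Ac without H3K4me3, a pairing that is typical of enhancers, was found at 97 rat orphan islands (4.79%) and 76 mouse ones (7.47%), against 0.554% and 0.425% of promoter islands and 2.90% and 3.56% of regions with neither.

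H3K4me3 and H3K27me3 in the same region, which in stem cells marks developmental genes held ready and is called bivalent, was found at 581 rat orphan islands (28.7%) and 136 mouse ones (13.4%). Of promoter islands, 34.3% in rat and 23.8% in mouse had both. Among the orphan islands with H3K4me3, H3K9Ac was called at 94.2% in rat and 82.3% in mouse, against 97.3% and 93.9% of promoter islands with H3K4me3. Whether both marks sit on the same nucleosomes, in different cells or side by side in a wide region cannot be told from these values.

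**Figure D2:**
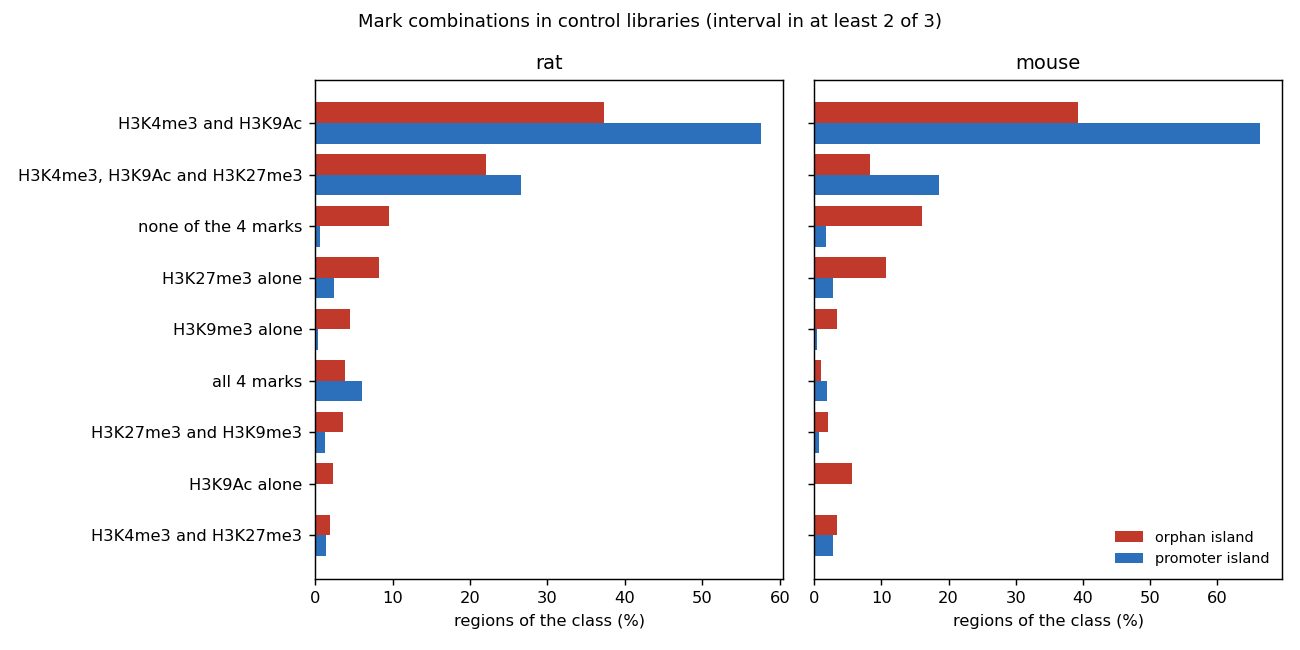
Percent of orphan islands and of promoter islands in each of 9 exclusive combinations of marks in control cortex, rat and mouse, where a mark counts if called in at least 2 of 3 controls. H3K27me3 alone, H3K9me3 alone and no mark make up 8.30%, 4.49% and 9.48% of rat orphan islands, against 2.42%, 0.441% and 0.611% of promoter islands.

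Orphan islands differed among themselves by where they lay. In rat, those with no listed gene had H3K4me3 more often than those inside a gene: 76.3% against 52.5%, with median signals of 10.9 and 3.16. In mouse the gap was smaller, with 63.7% against 57.6% and medians of 4.99 and 4.42. H3K9Ac was called at 73.3% of rat orphan islands with no listed gene and 61.7% of those inside a gene. In mouse the order was the other way round, at 53.9% and 62.4%. H3K27me3 was called at 46.4% and 37.1% in rat, and at 29.3% and 23.1% in mouse. The annotation behind the gene columns is not stated, and an unannotated gene start would be counted as an orphan island.

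Length went with the repressive Polycomb mark. H3K27me3 was called at 19.8% of rat orphan island regions of up to 5000 bp, 31.0% of those of 5000 to 10000 bp, 50.2% of those of 10000 to 20000 bp and 76.9% of longer ones. In mouse the shares were 0.498%, 14.1%, 27.6% and 59.9%. H3K4me3 had no such order and was most often called at 5000 to 10000 bp, at 78.2% in rat and 78.5% in mouse. Since the regions were merged from called intervals, a wide domain of a mark also makes a long region, and the order is a description of the regions and not of the islands.

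At the edge of the rule, regions with 1 island and no promoter had H3K4me3 in 69.1% of cases in rat and 59.3% in mouse. Regions with 1 island and 1 promoter had it in 94.2% and 93.8%, and regions with neither in 3.69% and 2.81%. Median lengths of these first and second kinds were close, at 8799 and 8999 bp in rat and 10599 and 11199 bp in mouse. Regions with neither were shorter, at 4399 bp in rat and 5199 bp in mouse, and shares were not matched for length. On the X chromosome, H3K27me3 was called at 26 of 81 rat orphan islands (32.1%) against 43.4% on autosomes, and at 3 of 44 mouse ones (6.82%) against 29.0%. H3K4me3 ran the other way, at 84.0% of X-linked against 68.7% of autosomal orphan islands in rat, and 33 of 44 X-linked orphan islands against 59.8% of autosomal ones in mouse.

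Part of the genes listed with orphan islands were the same in both species. Of 786 gene symbols listed with rat orphan islands and 596 with mouse ones, 233 were in both lists, which is 29.6% of the rat list and 39.1% of the mouse list. At these 233 genes, H3K4me3 was called on an orphan island in both species for 140, in rat only for 17, in mouse only for 13 and in neither for 63. For H3K9Ac the numbers were 138, 28, 22 and 45. For H3K27me3 they were 64 in both, 59 in rat only, 7 in mouse only and 103 in neither. H3K9me3 was called in both species at 7 of these genes. The regions were matched by gene symbol alone, not by sequence. The overlap of symbols was not computed for other regions, so whether it is large for orphan islands was not tested.

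The orphan islands of imprinted genes carried active marks, and in rat also H3K9me3. Imprinted genes are expressed from a single parental allele, and their control regions are islands methylated on the other. In mouse, the control region of the Kcnq1 cluster and that of Igf2r are known to lie in introns of these genes, away from their promoters. In rat, 3 of 104 regions listed with imprinted genes were orphan islands, a share close to the 2.78% of all rat regions. They were at Kcnq1, Igf2r and Gnas. By the rule of 2 of 3 controls, each had H3K4me3, H3K9Ac and H3K9me3 and no H3K27me3. The last mark was called in 1 control at Igf2r and in 1 at Gnas. At Kcnq1, a potassium channel gene (chr1:223355800-223365399, rn5, inside the gene), H3K9me3 was 8.69, 5.51 and 4.95 in TAK-418 rats, 7.54, 6.94 and 6.22 in vehicle rats and 3.13, 6.96 and 5.53 in control rats. The groups overlapped. Its H3K4me3 in controls was 17.0 ± 3.53 and its H3K9Ac 7.14 ± 0.893 (SD, n = 3).

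At Igf2r, the receptor that clears insulin-like growth factor 2 (chr1:51543600-51552199, rn5, inside the gene), H3K9me3 was 7.19, 4.87 and 4.31 in TAK-418 rats, 7.36, 7.23 and 6.77 in vehicle rats and 2.77, 5.64 and 6.30 in control rats, beside an H3K4me3 of 7.77 ± 2.48 in controls. At Gnas, which encodes the stimulatory G protein alpha subunit (chr3:178469200-178483199, rn5, inside the gene, 3 islands), H3K9me3 was 3.22, 3.25 and 2.91 in TAK-418 rats, 5.05, 4.00 and 3.41 in vehicle rats and 1.73, 4.03 and 5.28 in control rats, beside an H3K4me3 of 19.6 ± 7.17. In all 3 regions control library 1 was the lowest of the controls. The marks of both parental alleles are summed in these libraries.

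In mouse, the orphan islands of imprinted genes were at Gnas and Inpp5f and had H3K4me3 and H3K9Ac and neither repressive mark. At Gnas (chr2:174325000-174346399, mm10) H3K4me3 was 14.1 ± 5.74 and H3K9Ac 8.12 in controls. At Inpp5f (chr7:128682600-128700799, mm10), a phosphoinositide phosphatase gene with an imprinted transcript in mouse brain, they were 10.4 and 7.35. The only orphan island in the clustered protocadherins, cell-surface proteins that give neurons individual identities, was inside Pcdha1 to Pcdha7 in mouse and had only H3K9me3, at 5.91 ± 3.59 in controls.

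Polycomb-marked orphan islands included those of developmental regulators. Of 12 rat regions listed with developmental transcription factors, 11 had H3K27me3, 7 had H3K4me3 and 6 had H3K9Ac, while of 5 mouse regions 4 had H3K27me3 and 3 had H3K4me3. Of all orphan islands, 43.0%, 69.3% and 70.1% had these marks in rat, and 28.0% and 60.3% had the first and second in mouse. The rat regions at Meis1 and Foxc1 were 21599 and 34599 bp long. Of all rat orphan islands over 20000 bp, 76.9% had H3K27me3. The Hox clusters and the genes of LSD1 and its partners held no orphan island in either species. At the orphan island downstream of Meis1, a homeobox gene of patterning, H3K27me3 in rat controls was 17.6 ± 7.93 and H3K4me3 1.99 (chr14:102914400-102935999, rn5). In mouse (chr11:18861000-18887399, mm10) H3K27me3 there was 4.77, 5.02 and 5.82 in TAK-418 mice, 13.4, 9.16 and 3.77 in vehicle mice and 5.73, 8.19 and 8.48 in control mice. The vehicle libraries spanned the whole range of the other groups. Inside Otp, a homeobox gene of hypothalamic neurons (chr2:43718000-43722799, rn5), H3K27me3 was 51.5, 27.9 and 31.2 in TAK-418 rats, 38.2, 51.5 and 32.0 in vehicle rats and 37.5, 45.6 and 18.7 in control rats, with no H3K4me3 called. The region listed with Gmds and the forkhead gene Foxc1 (chr17:35819800-35854399, rn5) held 4 islands and had both H3K27me3, at 18.1 ± 8.10, and H3K4me3, at 10.0 ± 4.64.

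Runx2, a transcription factor of bone formation, had a bivalent orphan island inside the gene in both species. In rat (chr9:17519400-17533199, rn5, 75311 bp from the listed start) H3K27me3 was 15.7, 6.89 and 8.97 in TAK-418 rats, 10.4, 14.2 and 9.88 in vehicle rats and 12.8, 16.2 and 6.17 in control rats. In mouse (chr17:44731800-44743399, mm10, 77198 bp from the listed start) H3K27me3 was 3.57, 4.55 and 4.21 in TAK-418 mice, 12.2, 7.86 and 3.55 in vehicle mice and 5.69, 7.26 and 6.97 in control mice. Mouse H3K4me3 there was 13.4, 12.3 and 13.9 in TAK-418 mice, 12.4, 10.5 and 13.0 in vehicle mice and 30.5, 16.1 and 14.0 in control mice, with control library 1 apart from the others. The H3K4me3 of the rat region is described with the exposure below.

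Genes of the synapse had 22 orphan islands over 17 genes in rat and 19 over 16 in mouse. In rat 15 had H3K9Ac, 11 H3K4me3 and 9 H3K27me3, and in mouse 12, 6 and 4. Of all orphan islands, 70.1%, 69.3% and 43.0% had these marks in rat, and 57.1%, 60.3% and 28.0% in mouse. H3K4me3 was thus less common on the synaptic ones than on all orphan islands in both species, a difference that was not tested. Of orphan islands inside any gene, 52.5% in rat and 57.6% in mouse had H3K4me3, and the rat synaptic share was close to that. Bdnf, a neurotrophin gene with several alternative promoters, had a region with H3K4me3 and H3K27me3 inside the gene in both species. In rat (chr3:107387000-107396199, rn5) H3K4me3 was 35.2, 22.5 and 37.6 in TAK-418 rats, 23.0, 24.7 and 25.9 in vehicle rats and 12.6, 21.7 and 15.8 in control rats, beside an H3K27me3 of 8.32 ± 3.80 in controls. All TAK-418 and vehicle values were above all control values. In mouse (chr2:109689400-109698399, mm10) H3K4me3 in controls was 12.8 ± 5.89 and H3K27me3 5.05 ± 0.756. Cacna1c, an L-type calcium channel gene, had 20.4 ± 6.86 for H3K4me3 and 5.32 ± 1.97 for H3K27me3 in rat controls (chr4:217085000-217100399, rn5), and Shank2, a postsynaptic scaffold gene, 11.1 and 4.82 in mouse controls (chr7:144271400-144297599, mm10).

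Among orphan islands, the strongest H3K4me3 in controls was seen in regions with no listed gene. Regions listed only with unnamed gene models were left out of this ranking. In rat it was a short region without a listed gene (chr15:39884800-39885599, rn5), at 216, 133 and 195 in TAK-418 rats, 136, 157 and 165 in vehicle rats and 69.6, 130 and 101 in control rats. In mouse it was chr6:39867200-39881399 (mm10), also without a listed gene, at 31.9 ± 13.8 in controls. Among regions with a named gene it was inside Zbtb44 in rat, at 76.3 ± 26.4 (chr8:32219800-32221199, rn5), and inside Kdm4c in mouse, a demethylase of H3K9, at 29.3 ± 13.1 (chr4:74250600-74256399, mm10). The signal of a short region is an average over few bases, so levels were not ranked between regions of different length any further.

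The exposure and the inhibitor were then compared over the orphan islands with limma, which was run on all regions of a species and mark and adjusted over all of them, with the orphan islands read out. A region was tested where an interval was called in at least 3 of the 9 libraries, and called changed at a Benjamini-Hochberg adjusted p under 0.05. Because the scaling of the deposited values is not stated, each comparison was also fitted after subtracting each library's median (median centring) and after quantile normalization. The 3 comparisons of a mark share libraries and are given side by side.

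As deposited, rat H3K4me3 rose at most orphan islands in TAK-418 against control rats, and at few of them in vehicle against control or TAK-418 against vehicle rats. The median signal over the 1478 tested orphan islands was 23.7, 15.6 and 23.7 in TAK-418 rats, 17.0, 17.9 and 17.8 in vehicle rats and 10.0, 15.5 and 12.5 in control rats. The vehicle rats lay above all controls, and TAK-418 library 2 was level with the highest control. The median log2 difference of vehicle from control was 0.42, with 1430 of 1478 orphan islands positive, while that over all tested regions was 0.37. Past the threshold, 41 orphan islands rose in vehicle rats and none fell (limma; 2.77%, against a background of 1.64% of all tested regions). Of promoter islands 1.17% were called. In TAK-418 against vehicle rats 5 orphan islands rose, with a background of 0.224%. In TAK-418 against control rats 1235 rose (83.6%, background 72.8%) and none fell (background 0.035%), beside 81.7% of promoter islands and 45.7% of regions with neither feature. With median centring or quantile normalization none was called in any of these comparisons. At an unadjusted p under 0.05 the centred fit held 233 orphan islands for vehicle against control (15.8%, against 13.5% of all tested regions), 67 for TAK-418 against vehicle (4.53%, against 2.95%) and 238 for TAK-418 against control (16.1%, against 16.2%). The quantile fit held 186 (12.6%, against 11.3%), 60 (4.06%, against 3.2%) and 225 (15.2%, against 14.4%) in the same order.

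The rat count for vehicle against control rested on single libraries. It was 717 without control library 2, the highest control (background 36.7%), 344 without TAK-418 library 2 (16.6%), 56 without TAK-418 library 3 (2.46%), 16 without TAK-418 library 1 (0.581%), 5 without vehicle library 3 (0.336%) and 1 without any one of vehicle libraries 1 and 2 and control libraries 1 and 3 (0.0769% to 0.147%). The count for TAK-418 against vehicle was 25 without TAK-418 library 2 (background 1.26%), 12 without control library 2 (0.434%), 8 without control library 1 (0.308%), 3 without vehicle library 3 (0.112%) or control library 3 (0.14%), 1 without TAK-418 library 1 (0.063%), TAK-418 library 3 (0.042%) or vehicle library 2 (0.014%), and 0 without vehicle library 1 (0.042%). That for TAK-418 against control was 253 without TAK-418 library 1 (background 12.3%), 296 without control library 1 (15.2%) and 544 without TAK-418 library 3 (28.3%).

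Among the regions called, the rat Runx2 island had H3K4me3 of 57.4, 36.4 and 47.5 in TAK-418 rats, 36.5, 41.6 and 41.2 in vehicle rats and 14.4, 32.7 and 20.0 in control rats. Neither exposed group overlapped the controls. Its log2 difference was 0.87 ± 0.252 (SE) for vehicle against control (limma adjusted p = 0.0437) and 1.09 ± 0.252 for TAK-418 against control (adjusted p = 0.000486), and after centring the difference of vehicle from control was 0.47 without a call. Its H3K9Ac was 8.25, 12.1 and 9.66 in TAK-418 rats, 21.4, 20.4 and 13.4 in vehicle rats and 9.74, 8.23 and 8.16 in control rats. The largest rise in vehicle against control was in a region of no listed gene (chr5:126926000-126926399, rn5), with 22.7, 13.4 and 15.1 in TAK-418 rats, 11.2, 14.0 and 15.3 in vehicle rats and 5.00, 7.33 and 3.42 in control rats. The log2 difference of vehicle from control there was 1.25 ± 0.221 (limma adjusted p = 4.22e-05). Its H3K4me3 intervals were called in 3 TAK-418, 3 vehicle and 0 control libraries, so that it met the filter through the exposed groups alone.

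The orphan islands that rose with TAK-418 against vehicle included one inside Dlgap1, a scaffold gene of the postsynaptic density (chr9:118610400-118614599, rn5). Its H3K4me3 was 7.21, 4.86 and 7.45 in TAK-418 rats, 3.54, 3.56 and 2.57 in vehicle rats and 3.06, 4.04 and 3.75 in control rats, and intervals were called in 2 TAK-418, 1 vehicle and 0 control libraries. It met the filter of 3 libraries mainly through the TAK-418 group, and with no filter none of the orphan islands was called in this comparison. The log2 difference of TAK-418 from vehicle was 0.82 ± 0.179 (limma adjusted p = 0.0063), 0.61 after centring and 0.59 after quantile normalization, without a call in either. Another was listed with Ttc1 and Adra1b, an adrenergic receptor gene (chr10:29217200-29243199, rn5), at 4.20, 2.84 and 5.20 in TAK-418 rats and 2.17, 2.39 and 2.42 in vehicle rats, a difference of 0.58 ± 0.148 (adjusted p = 0.0403). A further 3 had no listed gene, of which 2 are given here. TAK-418 and vehicle libraries did not overlap at 4 of the 5 calls, which are the regions given here. At chr4:17870200-17881599 H3K4me3 was 5.82, 5.06 and 12.5 in TAK-418 rats and 3.21, 3.18 and 4.18 in vehicle rats (0.87 ± 0.192, adjusted p = 0.00803), and at chr18:72521600-72526199 it was 5.34, 4.50 and 4.01 in TAK-418 rats and 2.27, 3.18 and 2.55 in vehicle rats (0.62 ± 0.155, adjusted p = 0.0341). The last of these had intervals in 3 TAK-418, 3 vehicle and 0 control libraries.

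The largest rise in TAK-418 against control rats was on the X chromosome, at chrX:145890400-145891999 (rn5). That region also had the highest H3K27me3 of rat orphan islands in controls (74.8 ± 38.8), unnamed gene models left out. Its H3K4me3 was 60.3, 40.0 and 50.6 in TAK-418 rats, 26.7, 34.8 and 28.2 in vehicle rats and 6.52, 28.7 and 15.8 in control rats, a log2 difference of TAK-418 from control of 1.70 ± 0.243 (limma adjusted p = 4.33e-09). The region inside Lox, the gene of an enzyme that cross-links collagen (chr18:46722800-46730599, rn5), had 16.4, 8.98 and 12.1 in TAK-418 rats, 7.17, 5.87 and 8.33 in vehicle rats and 2.27, 8.58 and 4.87 in control rats. Its log2 difference of TAK-418 from control was 1.21 ± 0.214 (adjusted p = 3.36e-06). For Prkg1, a cGMP-dependent kinase gene (chr1:257432000-257436199, rn5), the values were 77.6, 51.7 and 86.8 in TAK-418 rats, 51.6, 54.8 and 48.3 in vehicle rats and 24.4, 37.2 and 33.7 in control rats, with a difference of 1.14 ± 0.272 (adjusted p = 0.000681).

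**Figure D3:**
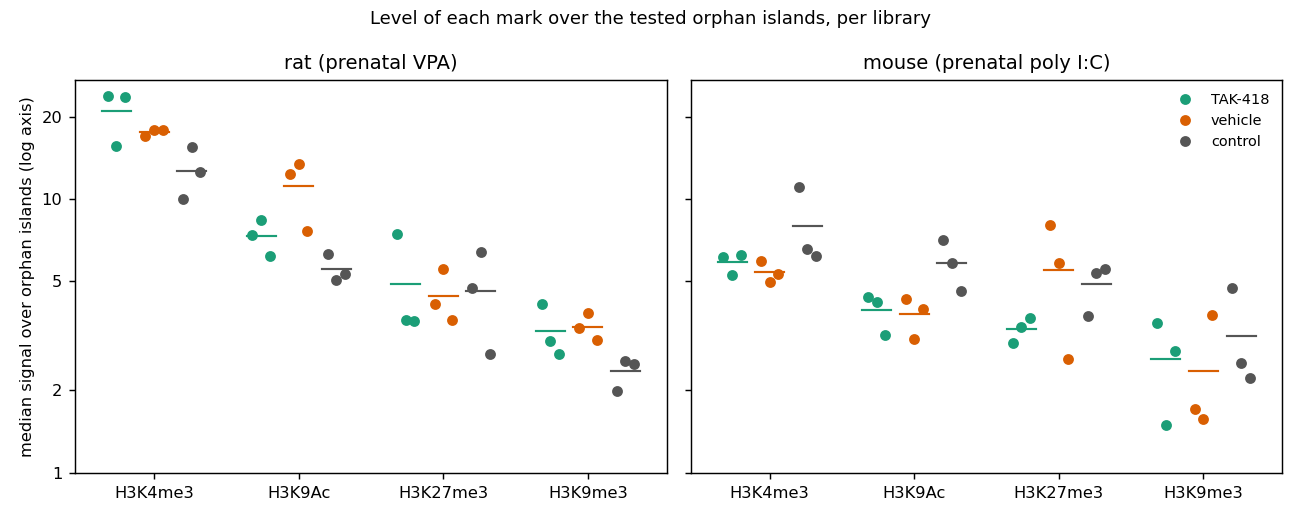
Median mean signal over the tested orphan islands in each library, on a log axis, for each mark in rat and mouse. Points are libraries of TAK-418, vehicle and control animals and lines are group means. In rat H3K9Ac the vehicle libraries stand at 12.4, 13.5 and 7.62, against 7.37, 8.40 and 6.20 with TAK-418 and 6.29, 5.08 and 5.33 in controls.

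Rat H3K9Ac was higher in vehicle than in control rats over nearly every orphan island, and it was lower with TAK-418 than with vehicle. The median signal over the 1573 tested orphan islands was 7.37, 8.40 and 6.20 in TAK-418 rats, 12.4, 13.5 and 7.62 in vehicle rats and 6.29, 5.08 and 5.33 in control rats. Vehicle libraries 1 and 2 lay above all others, vehicle library 3 lay among the TAK-418 libraries, and TAK-418 and control rats overlapped. Of the tested orphan islands 1534 rose in vehicle against control (97.5%, background 90.8%), beside 98.1% of promoter islands and 81.1% of regions with neither feature. The median log2 difference was 0.85 over orphan islands and 0.78 over all tested regions. With median centring, 203 orphan islands were higher (background 11.5%) and 92 lower (background 12.4%, or 23.9% in either direction). With quantile normalization 2 were higher (background 0.0396%) and none lower (background 0.322%, or 0.362% in either direction).

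Those 2 regions, which passed under both rescalings as well as on the deposited values, were chr20:10287000-10298799 (rn5), without a listed gene, and chr14:33450400-33466199 (rn5), inside the unnamed gene model RGD1311575. The first had H3K9Ac of 9.62, 10.8 and 7.36 in TAK-418 rats, 18.4, 20.4 and 9.84 in vehicle rats and 6.36, 5.30 and 5.86 in control rats, with a log2 difference of vehicle from control of 1.28 ± 0.254 (limma adjusted p = 0.000139), 0.50 after centring and 0.40 after quantile normalization. The second had 3.39, 4.32 and 2.95 in TAK-418 rats, 6.06, 7.17 and 3.48 in vehicle rats and 2.42, 2.04 and 2.14 in control rats (0.99 ± 0.227, adjusted p = 0.00033). All vehicle values of both regions were above all control values. The second had H3K9Ac intervals in 0 control libraries, so that it met the filter through the exposed groups alone.

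The orphan islands with a named gene and the largest rise of H3K9Ac in vehicle against control rats included that inside Zbtb44, a zinc finger gene. Its H3K9Ac was 31.3, 46.5 and 31.2 in TAK-418 rats, 88.8, 88.2 and 58.5 in vehicle rats and 38.0, 26.6 and 26.7 in control rats. The difference of vehicle from control was 1.33 ± 0.28 (limma adjusted p = 0.000208), and it remained a call after centring (0.55, adjusted p = 0.0204) and not after quantile normalization (0.17, adjusted p = 0.327). Adam11, a neuronal membrane protein gene of the ADAM family (chr10:90529000-90542999, rn5), had 11.2, 16.1 and 10.3 in TAK-418 rats, 27.6, 27.8 and 14.4 in vehicle rats and 10.4, 7.17 and 7.67 in control rats, a difference of 1.33 ± 0.254 (adjusted p = 8.27e-05). Notch1, a receptor of cell fate choice (chr3:9265800-9305999, rn5), had 13.0, 16.0 and 10.7 in TAK-418 rats, 25.0, 27.9 and 12.7 in vehicle rats and 9.53, 7.13 and 8.47 in control rats, a difference of 1.22 ± 0.254 (adjusted p = 0.0002). The island inside Mecom, a zinc finger transcription factor gene (chr2:137131400-137150799, rn5), moved little as deposited. It had 3.24, 3.12 and 2.59 in TAK-418 rats, 3.25, 3.55 and 2.35 in vehicle rats and 2.11, 2.38 and 2.56 in control rats, a difference of 0.26 ± 0.19 (adjusted p = 0.17), which was -0.52 with a call after centring (adjusted p = 0.0189) and -0.24 after quantile normalization (adjusted p = 0.134).

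With TAK-418 against vehicle, 290 of the 1573 orphan islands fell in H3K9Ac (18.4%, background 9.56%), and none rose (background 0.017%, or 9.58% in either direction). The share was 15.7% for promoter islands and 0.705% for regions with neither feature. The median log2 difference was -0.52 over orphan islands and -0.41 over all tested regions. With median centring, 448 orphan islands were lower (28.5%, background 17.8%; 30.7% of promoter islands) and 53 higher (background 13.7%, or 31.5% in either direction). With quantile normalization 45 were lower (background 1.3%) and 15 higher (background 2.69%, or 3.98% in either direction). Under both rescalings in the same direction, 41 were lower (background 1.17%) and 9 higher (background 2.2%, or 3.37% in either direction). In TAK-418 against control rats none of the 1573 was called (limma, background 0.0%), with 152 at an unadjusted p under 0.05 (9.66%, against 19.2% of all tested regions) and a median difference of 0.31, against 0.37 over all tested regions.

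Among orphan islands, the share that fell was highest where no gene was listed. Of orphan islands with no listed gene 208 of 897 fell (23.2%), of those inside a gene 48 of 418 (11.5%) and of those up- or downstream only 34 of 258 (13.2%). No test was made of this difference. Shares by position were not taken over all tested regions, so whether the order is particular to orphan islands was not tested. The count rested on single libraries too. Without vehicle library 3, the low one of its group, 1532 orphan islands were lower with TAK-418 than with vehicle (background 88.5%), and 663 were called in TAK-418 against control (background 59.8%). The count for TAK-418 against vehicle was 2 without TAK-418 library 1, 12 without TAK-418 library 3, 5 without vehicle library 1 and 9 without vehicle library 2, with backgrounds of 0.0396% to 0.288%. It was 131 without control library 1, 63 without control library 2 and 53 without control library 3, with backgrounds of 3.86%, 1.77% and 1.31%.

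**Figure D4:**
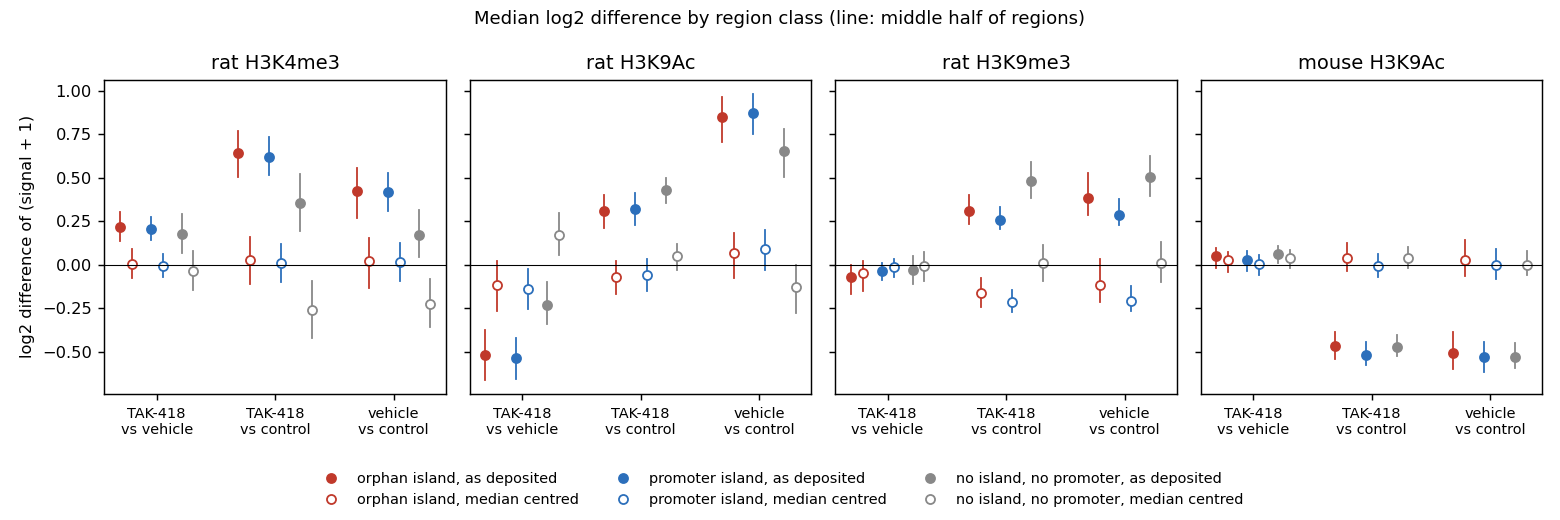
Median log2 difference of orphan islands, promoter islands and regions with neither feature for rat H3K4me3, H3K9Ac and H3K9me3 and mouse H3K9Ac. Points are medians and lines run from the lower to the upper quartile of the regions; filled points are values as deposited and open points are after median centring. For rat H3K9Ac in TAK-418 against vehicle the orphan islands stand at -0.52 as deposited.

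The orphan islands that fell with TAK-418 were spread over many genes. Inside Elf2, an ETS-family transcription factor gene (chr2:159800600-159811199, rn5), H3K9Ac was 8.41, 12.5 and 8.76 in TAK-418 rats, 27.0, 26.7 and 17.5 in vehicle rats and 12.8, 8.26 and 9.27 in control rats. All TAK-418 values were below all vehicle values and within the range of the controls. The log2 difference of TAK-418 from vehicle was -1.18 ± 0.254 (limma adjusted p = 0.00161), -0.78 after centring (adjusted p = 0.00447) and -0.58 after quantile normalization (adjusted p = 0.0297). Inside Cdyl, a chromodomain corepressor gene (chr17:31696400-31707799, rn5), it was 6.70, 8.32 and 7.41 in TAK-418 rats, 18.2, 19.6 and 14.4 in vehicle rats and 9.80, 7.21 and 6.63 in control rats. The difference was -1.11 ± 0.254 (adjusted p = 0.00393), and -0.71 and -0.58 after the rescalings, both called. Tenm3, a teneurin that guides the wiring of neurons (chr16:46324600-46330799, rn5), had 6.52, 9.78 and 7.37 in TAK-418 rats, 20.5, 18.5 and 12.9 in vehicle rats and 8.23, 6.05 and 7.52 in control rats, a difference of -1.03 ± 0.254 (adjusted p = 0.00792) that was called after both rescalings.

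Further regions fell by more. The largest was at chr15:9215000-9215599 (rn5), with no listed gene, where H3K9Ac was 4.46, 2.33 and 4.31 in TAK-418 rats, 10.5, 14.5 and 10.8 in vehicle rats and 5.50, 2.92 and 3.77 in control rats. The log2 difference was -1.48 ± 0.251 (limma adjusted p = 8.4e-06), and -1.06 after quantile normalization (adjusted p = 0.037). Its H3K9Ac intervals were called in 0 TAK-418, 3 vehicle and 0 control libraries, so that it met the filter through the vehicle group alone, and with no filter no orphan island was called in this comparison. The H3K4me3 of this region was 23.9, 8.75 and 10.8 in TAK-418 rats, 7.00, 8.40 and 6.46 in vehicle rats and 2.63, 6.07 and 3.82 in control rats, with TAK-418 above vehicle and control in every library and a difference of TAK-418 from control of 1.51 ± 0.213 (limma adjusted p = 3.55e-09). Its H3K4me3 intervals were called in 0 control libraries, so that it met the H3K4me3 filter through the exposed groups alone. With either rescaling or no filter, no rat orphan island was called for H3K4me3. Downstream of Corin, a protease that activates natriuretic peptides (chr14:38073200-38074799, rn5), H3K9Ac was 16.1, 26.0 and 17.0 in TAK-418 rats, 49.0, 59.9 and 37.3 in vehicle rats and 30.7, 18.7 and 14.6 in control rats, a difference of TAK-418 from vehicle of -1.27 ± 0.266 (limma adjusted p = 0.0011) that was not called after quantile normalization (-0.49, adjusted p = 0.12). Inside Baz1a, a subunit of chromatin remodelling complexes (chr6:85404600-85405399, rn5), it was 24.0, 32.3 and 16.9 in TAK-418 rats, 70.3, 63.9 and 41.0 in vehicle rats and 33.3, 22.1 and 21.4 in control rats, a difference of -1.24 ± 0.271 (adjusted p = 0.00216).

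A few orphan islands moved against this after rescaling. At Mef2c, a transcription factor gene of neuronal development with 2 such islands inside it, H3K9Ac was level as deposited. At chr2:11585400-11597799 (rn5) it was 6.15, 5.35 and 4.15 in TAK-418 rats, 5.29, 5.71 and 3.30 in vehicle rats and 3.72, 3.62 and 3.51 in control rats. TAK-418 and vehicle libraries overlapped. The log2 difference of TAK-418 from vehicle was 0.12 ± 0.247 (limma adjusted p = 0.681), 0.52 after centring (adjusted p = 0.00454) and 0.38 after quantile normalization (adjusted p = 0.0365). The other island (chr2:11533200-11553799) had 12.7, 11.4 and 8.44 in TAK-418 rats, 11.1, 12.3 and 8.06 in vehicle rats and 8.10, 7.16 and 8.15 in control rats, with 0.04 ± 0.254 as deposited (adjusted p = 0.892), 0.44 after centring (adjusted p = 0.00715) and 0.55 after quantile normalization (adjusted p = 0.0196). Inside Ncam2, a neural cell adhesion gene (chr11:23868600-23875599, rn5), it was 13.4, 12.8 and 9.31 in TAK-418 rats, 13.8, 15.5 and 8.59 in vehicle rats and 9.25, 6.30 and 8.08 in control rats. Its difference of TAK-418 from vehicle was -0.07 as deposited and changed sign to 0.33 after centring (adjusted p = 0.016) and 0.48 after quantile normalization (adjusted p = 0.0247).

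**Figure D5:**
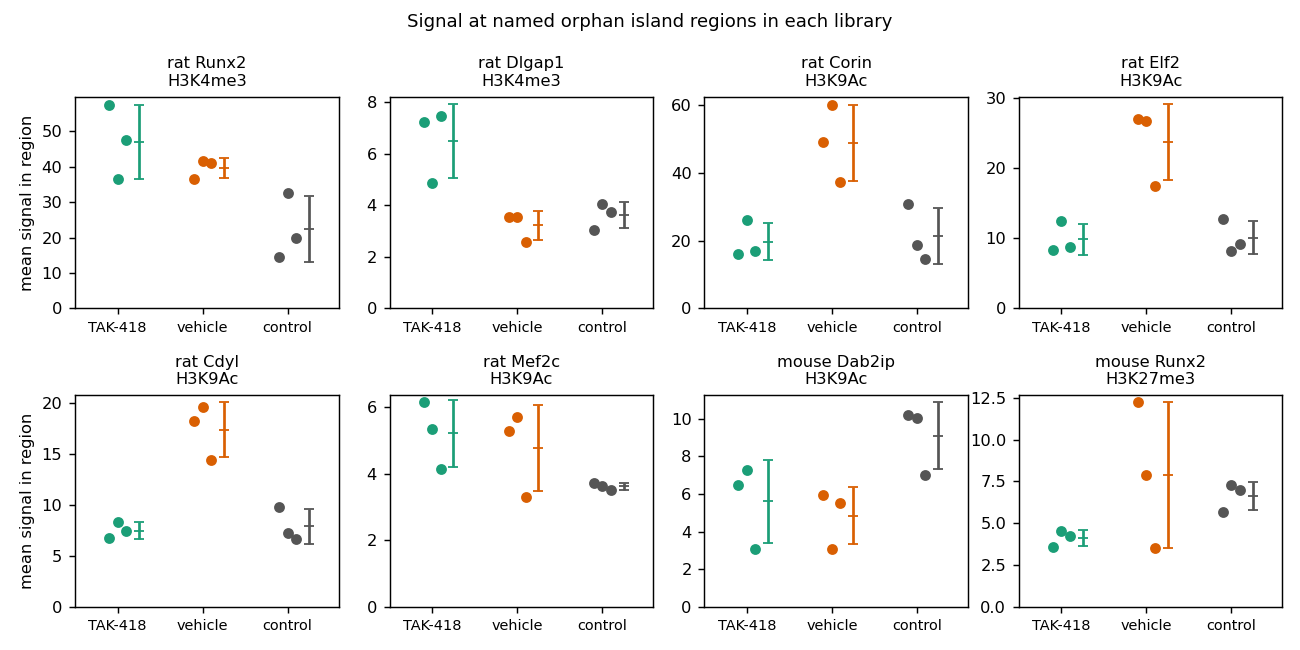
Mean signal at 8 orphan islands named in the text, with TAK-418, vehicle and control libraries as points and the mean ± SD of each group. H3K9Ac at Cdyl in rat is 6.70 to 8.32 with TAK-418, 14.4 to 19.6 with vehicle and 6.63 to 9.80 in controls, and H3K4me3 at Dlgap1 is 4.86 to 7.45, 2.57 to 3.56 and 3.06 to 4.04.

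As deposited, rat H3K27me3 showed no orphan island past the threshold in any comparison. Of 924 tested, limma called 0 in vehicle against control, in TAK-418 against vehicle and in TAK-418 against control (background 0.0% each), with 0, 1 and 0 at an unadjusted p under 0.05, beside 0.0258%, 0.0129% and 0.0711% of all tested regions. With quantile normalization 1 was called in TAK-418 against control (background 0.0258%). The medians over these regions were 7.48, 3.61 and 3.57 in TAK-418 rats, 4.15, 5.56 and 3.62 in vehicle rats and 4.75, 6.40 and 2.73 in control rats. The groups overlapped and the libraries within each spread more than the groups differed.

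Rat H3K9me3 was higher in both exposed groups than in controls at part of the tested orphan islands, as deposited. The medians over 416 tested orphan islands were 4.15, 3.02 and 2.71 in TAK-418 rats, 3.39, 3.82 and 3.05 in vehicle rats and 1.99, 2.55 and 2.51 in control rats, and neither exposed group overlapped the controls. In vehicle against control 93 orphan islands rose (22.4%, background 56.2%), beside 9.61% of promoter islands and 58.3% of regions with neither feature. In TAK-418 against control 23 rose (5.53%, background 39.5%), and in TAK-418 against vehicle 0 changed (limma, background 0.0%, 9 at an unadjusted p under 0.05, or 2.16% against 0.491% of all tested regions). The called share of orphan islands was below the background in both comparisons with controls, and their median log2 differences of 0.38 for vehicle and 0.31 for TAK-418 against control stood below the 0.50 and 0.48 of all tested regions. After median centring those medians were -0.11 and -0.16 with none called. The count for vehicle against control was 0 without control library 1, the low one (background 0.51%), and 302 without TAK-418 library 1 (89.9%). It was 0 without vehicle library 2 (0.0422%), 3 without vehicle library 1 (2.12%) or control library 2 (0.955%), 4 without control library 3 (1.10%) and 47 without vehicle library 3 (42.4%). That for TAK-418 against control was 0 without vehicle library 1 (background 4.65%) or any one of the controls (0.0728% to 0.786%), 1 without TAK-418 library 1 (3.88%), 7 without vehicle library 3 (18.2%) and 124 without TAK-418 library 3 (background 67.3%).

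The largest such rise was in a short region without a listed gene (chr15:110909800-110909999, rn5), with H3K9me3 of 14.5, 8.67 and 6.17 in TAK-418 rats, 15.8, 14.3 and 15.8 in vehicle rats and 2.17, 8.00 and 11.8 in control rats, a log2 difference of vehicle from control of 1.19 ± 0.352 (limma adjusted p = 0.0184). Its H3K9me3 intervals were called in 1 TAK-418, 3 vehicle and 1 control library, and without control library 1 the difference was 0.60. Downstream of Srl, which encodes the calcium-binding protein sarcalumenin (chr10:10049000-10060799, rn5), it was 4.64, 3.99 and 3.18 in TAK-418 rats, 4.08, 4.98 and 3.87 in vehicle rats and 2.25, 2.35 and 2.63 in control rats (0.64 ± 0.231, adjusted p = 0.0278). Downstream of Pcdh1, a protocadherin outside the clusters (chr18:30998000-31006799, rn5), it was 3.23, 3.34 and 2.32 in TAK-418 rats, 2.40, 3.10 and 3.04 in vehicle rats and 2.01, 1.67 and 1.95 in control rats. Its difference of TAK-418 from control was 0.45 ± 0.187 (adjusted p = 0.0449) and changed sign to -0.02 after centring, and intervals were called in 2 TAK-418, 2 vehicle and 0 control libraries.

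In mouse, H3K9Ac was lower in vehicle than in control animals over most orphan islands, as deposited. The medians over 613 tested orphan islands were 4.40, 4.21 and 3.18 in TAK-418 mice, 4.33, 3.08 and 3.97 in vehicle mice and 7.09, 5.82 and 4.61 in control mice, so that no library of an exposed group reached the controls. In vehicle against control 384 fell and none rose (62.6%, background 64.0%), beside 61.5% of promoter islands and 76.3% of regions with neither feature. The median difference was -0.51 over orphan islands and -0.53 over all tested regions, and after centring or quantile normalization 0 were called, with 58 and 37 at an unadjusted p under 0.05 (9.46% against 7.81% of all tested regions, and 6.04% against 5.11%). The fall was called at 76.9% of orphan islands inside a gene, 48.3% of those with no listed gene and 55.1% of those up- or downstream only. Shares by position were not taken over all tested regions here either. In TAK-418 against control 0 were called (background 0.0%), with 398 at an unadjusted p under 0.05 (64.9%, against 74.4% of all tested regions), and in TAK-418 against vehicle 0 (background 0.0%), with 0 at that level (0.0392% of all tested regions).

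These mouse counts turned on single libraries. For vehicle against control the count was 0 without TAK-418 library 2, vehicle library 2, vehicle library 3, control library 1 or control library 2 (background 0.0% each), and 214 without TAK-418 library 1 (background 33.9%). For TAK-418 against control it was 560 without control library 3 (background 94.7%) and 295 without vehicle library 2 (57.1%). Among the regions called as deposited, that inside Dab2ip, a Ras GTPase-activating protein gene (chr2:35573600-35736799, mm10), had H3K9Ac of 6.47, 7.27 and 3.10 in TAK-418 mice, 5.94, 3.10 and 5.50 in vehicle mice and 10.2, 10.0 and 7.03 in control mice, a log2 difference of vehicle from control of -0.81 ± 0.244 (limma adjusted p = 0.032). The region downstream of Asxl1, a Polycomb-associated gene, and inside 8430427H17Rik (chr2:153404000-153451599, mm10), had 7.74, 7.65 and 3.54 in TAK-418 mice, 7.46, 3.55 and 6.24 in vehicle mice and 12.1, 11.5 and 8.46 in control mice (-0.82 ± 0.255, adjusted p = 0.032). Inside Tbc1d14, a regulator of autophagy (chr5:36499400-36555399, mm10), it was 5.69, 5.90 and 3.26 in TAK-418 mice, 5.52, 3.01 and 4.98 in vehicle mice and 9.36, 9.08 and 6.55 in control mice (-0.78 ± 0.239, adjusted p = 0.032). In each of the 3 regions all libraries of exposed mice lay below all controls, except TAK-418 library 2 at Dab2ip, which was above the lowest control.

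Mouse H3K4me3 gave no call as deposited. The medians over 629 tested orphan islands were 6.13, 5.30 and 6.25 in TAK-418 mice, 5.94, 4.98 and 5.31 in vehicle mice and 11.1, 6.57 and 6.22 in control mice, with control library 1 far above the rest. Limma called 0 of 629 in vehicle against control (background 0.0%), in TAK-418 against vehicle (0.0%) and in TAK-418 against control (0.00804%), with 231, 6 and 40 at an unadjusted p under 0.05. Those are 36.7%, 0.954% and 6.36% of orphan islands, against 39.2%, 0.756% and 6.12% of all tested regions. Without control library 3, 342 were called in vehicle against control (background 62.0%), and without control library 1 the counts were 3 in vehicle against control (background 0.281%), 21 in TAK-418 against vehicle (1.71%) and 2 in TAK-418 against control (0.137%).

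In TAK-418 against vehicle 2 mouse orphan islands were higher and 1 lower with median centring (background 0.281%), and 4 higher and 1 lower with quantile normalization (background 0.707%). The same 3 passed under both (background 0.265%). Inside Otud7a, a deubiquitinase gene (chr7:63748200-63761599, mm10), H3K4me3 was 5.42, 4.45 and 5.32 in TAK-418 mice, 3.92, 2.75 and 3.18 in vehicle mice and 8.17, 4.72 and 4.27 in control mice. The TAK-418 and vehicle libraries did not overlap. The log2 difference was 0.51 ± 0.224 as deposited (limma adjusted p = 1.0), 0.40 after centring (adjusted p = 0.0332) and 0.40 after quantile normalization (adjusted p = 0.0383). At chr8:120209600-120242599 (mm10), without a listed gene, it was 8.24, 6.31 and 8.81 in TAK-418 mice, 6.22, 3.62 and 4.37 in vehicle mice and 13.4, 7.42 and 6.58 in control mice, with 0.52 after centring (adjusted p = 0.0431). At chr11:23063600-23070999 (mm10), also without one, it was 10.3, 9.18 and 9.93 in TAK-418 mice, 13.2, 11.6 and 11.7 in vehicle mice and 20.7, 12.6 and 11.2 in control mice, with -0.39 after centring (adjusted p = 0.0282).

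Mouse H3K27me3 and H3K9me3 gave no call as deposited either. For H3K27me3 the medians over 328 tested orphan islands were 2.97, 3.41 and 3.69 in TAK-418 mice, 8.04, 5.85 and 2.61 in vehicle mice and 3.74, 5.36 and 5.56 in control mice. TAK-418 mice were below all controls and below vehicle libraries 1 and 2, and vehicle library 3 was below all of them. Limma called 0 of 328 in each comparison (background 0.0% each), with 0 at an unadjusted p under 0.05 for vehicle against control, 1 for TAK-418 against vehicle (0.281% of all tested regions) and 0 for TAK-418 against control. The log2 difference of TAK-418 from vehicle had a median of -0.48 and was positive at 0 of 328. Without vehicle library 3, all 328 were called lower with TAK-418, as were 9235 of the 9238 regions tested (background 100%). For H3K9me3 the medians over 163 tested orphan islands were 3.53, 1.49 and 2.79 in TAK-418 mice, 1.71, 1.57 and 3.77 in vehicle mice and 4.72, 2.52 and 2.22 in control mice. Limma called 0 of 163 in each comparison (background 0.0% each), with 0 at an unadjusted p under 0.05, and also 0 for TAK-418 against control in the 5 libraries left without TAK-418 library 2 and the vehicle group.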

How the data were processed

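The authors deposited 1 table of signal per species, over regions merged across libraries: the mean and the highest signal of each library in each region, an interval call, and counts of CpG islands and promoters, per the file headers. Reads were aligned with BWA 0.7.12 to rn5 and mm10, per the submitters' processing notes; the caller, bin width, scaling, read depth and promoter width were not given in the sources used here. Frozen cortex was fixed with 1% formaldehyde and 30 ug of chromatin used per reaction, per the labels' protocols. The tables hold 72 ChIP libraries of the 74 samples. All library columns were matched by name (0 unmatched).

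Values were tested as log2(mean signal + 1), which understates changes of weak regions, with limma 3.58.1 in R 4.3.3 (trend and robust estimation, 9 libraries per mark and species, 1 coefficient per group); the script was tested on simulated data. Regions without an interval in 3 of 9 libraries were left out. Alternatives were median centring, quantile normalization, pseudocount 0.5, no filter, highest signal, a replicate block and leaving out each library. The members, gene lists and criteria were chosen with earlier results of these data known. Named regions were the highest in controls per mark, those with both H3K4me3 and a repressive mark, list members, and the 5 largest changes in each direction among calls without overlap, with unnamed models passed over where possible; the synaptic regions and some others were picked after their values were seen. Not all are given in the text. No sequence is shown.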

Additional observations from a re-analysis of the deposited data

How the results depend on the processing

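Scaling decided most counts of orphan islands called. With median centring the counts were 0 for rat H3K4me3 in all 3 comparisons, 295 for rat H3K9Ac in vehicle against control and 501 in TAK-418 against vehicle, 0 for rat H3K9me3 in both comparisons with controls, 3 for mouse H3K4me3 in TAK-418 against vehicle and 0 for mouse H3K9Ac in vehicle against control. With quantile normalization they were 0, 2, 60, 0, 5 and 0 in the same order, and 1 for rat H3K27me3 in TAK-418 against control. Under both rescalings, a criterion added after seeing the data, rat H3K9Ac gave 2 and 50. With no filter, which tests regions of almost no signal too, rat H3K4me3 gave 0 in all 3 comparisons, rat H3K9Ac 0 in TAK-418 against vehicle, rat H3K9me3 4 in vehicle against control and 5 in TAK-418 against control, mouse H3K9Ac 0 in vehicle against control, and mouse H3K4me3 2 and mouse H3K9me3 1 in TAK-418 against control. With the highest signal, rat H3K4me3 gave 1 in vehicle against control and 0 in TAK-418 against vehicle, rat H3K9Ac 1004 in TAK-418 against vehicle (63.8%, against 43.4% of all tested regions) and mouse H3K9Ac 0 in vehicle against control. The cause of these moves was not tested.

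Leaving out 1 library gave 1 to 717, 0 to 25 and 253 to 1431 orphan islands for rat H3K4me3 in vehicle against control, TAK-418 against vehicle and TAK-418 against control. For rat H3K9Ac the ranges were 1257 to 1570, 2 to 1532 and 0 to 663, for rat H3K9me3 0 to 302, 0 to 4 and 0 to 124, and for mouse H3K4me3 0 to 342, 0 to 21 and 0 to 2. For mouse H3K9Ac they were 0 to 544 in vehicle against control and 0 to 560 in TAK-418 against control, and for mouse H3K27me3 in TAK-418 against vehicle 0 to 328. The other comparisons stayed at 0.

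Whether replicate numbers pair the libraries could not be told. Same-numbered libraries deviated together, with a correlation over 0.1, in 0 to 5 of 9 pairs per mark. The median correlation ran from -0.196 in rat H3K4me3 to 0.221 in mouse H3K9me3. Deviations within groups of 3 libraries cannot settle the question. With the replicate number as a block, the pairing fit gave 1, 2 and, for rat H3K9Ac in TAK-418 against vehicle, 866 calls (55.1%, against 37.3% of all tested regions), where the first are rat H3K4me3 in vehicle against control and in TAK-418 against vehicle. It gave 1 for rat H3K9me3 in vehicle against control, 0 in TAK-418 against control, and 463 for mouse H3K9Ac in TAK-418 against control (75.5%, against 84.5%).

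Of 32 log2 changes of single regions, 307 of 480 alternatives kept direction and side of the threshold, 146 lost the call, 14 gained one and 13 changed sign; pseudocount 0.5 changed none. Sign changes were at Mecom (-0.52 centred, -0.24 quantile), Pcdh1 (-0.02 centred), Ncam2 (0.33 centred, 0.48 quantile, -0.30 to 0.09 with 1 library left out) and the Mef2c islands (chr2:11585400-11597799, -0.55 with the highest signal, -0.08 to 0.25 with 1 library left out; chr2:11533200-11553799, -0.68, and -0.12 to 0.20). Shares and levels in controls moved by less than 1 SD in 39 of 72 alternatives and by more in the others. The H3K9me3 share was 15.9% in rat by the rule of 2 of 3 controls and 5.83% by that of 3 of 3, and in mouse 8.84%, with 19.6% for 1 of 3 and 5.50% for 3 of 3. Over all orphan islands instead of those with the mark, levels were lower in all 8 cases, such as 7.82 against 13.4 for rat H3K4me3. Read depth is unknown, so counting error cannot be given.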
